A study of Homo sapiens with 8 samples.

Results

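The 10 genes described here were ligands, receptors, SMAD proteins and a target gene of the transforming growth factor beta (TGF-beta) pathway: TGFB1, TGFB2, INHBA, TGFBR1, TGFBR2, SMAD2, SMAD3, SMAD4, SMAD7 and TGFBI. They were chosen by name from 18689 genes with a current symbol, and the value of each gene was the sum of its RefSeq messenger RNA entries in each library. All 10 reached the mean of at least 1 FPKM (fragments scaled by transcript length and by mapped reads) that 10501 genes reached and that a test required.

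TGF-beta ligands are secreted in a latent form and, once released, bring together a type II and a type I receptor kinase on the cell surface. The type I receptor phosphorylates the receptor-regulated SMAD proteins SMAD2 and SMAD3, which join SMAD4, enter the nucleus and act on gene promoters, while SMAD7 is an inhibitory SMAD that is itself induced and closes a feedback loop. In kidney the pathway is known for its part in fibrosis and in the growth control and mesenchymal change of epithelial cells.

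RNA sequencing was done on 8 libraries from A498 and 786-O, established lines of clear cell renal cell carcinoma (ccRCC). For each line there were 2 libraries transfected with a non-target control siRNA (NTC) and 1 library each for siRNA 1 and siRNA 2 against the long intergenic noncoding RNA SLINKY, and both siRNA libraries were taken as the knockdown group of their line. All siRNAs were given by lipofection at 50 nM for 16 h, so the controls also carried a transfected siRNA, and reads were single-end and 36 bp long. A498 was kept in DMEM and 786-O in RPMI-1640, so the line and its medium cannot be told apart. The labels describe the siRNAs as pools. The paper instead describes 2 separate siRNAs against SLINKY, each with its own sequence, and a pool as the control.

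The confidence intervals in the files corresponded to about 17500000 to 45400000 reads per library, with A498 siRNA 2 the shallowest and 786-O NTC 2 the deepest. SLINKY, the targeted transcript, measured 14.6 and 16.1 FPKM in the A498 NTC libraries against 1.64 and 3.01 with siRNA 1 and siRNA 2. In 786-O it measured 1.45 and 1.39 FPKM in the NTC libraries against 0.0569 and 0.594. It was lower in 4 of 4 knockdown libraries than in any NTC library of the same line (two-sided exact permutation test within lines, p = 0.0556, the smallest that 36 arrangements allow). PAX8, a kidney epithelial transcription factor, measured 39.2 to 48.1 FPKM over the 8 libraries, and the keratin KRT8 444 to 692 FPKM. CA9, a hypoxia-induced ccRCC marker, was at most 0.559 FPKM in A498 and 0.0229 FPKM in 786-O. The leukocyte markers PTPRC and CD3E were listed at 0 in all 8 libraries, and 4 endothelial markers summed to at most 0.055 FPKM. CD68, a lysosomal protein listed as a leukocyte marker, measured 138 to 151 FPKM in A498 and 1.70 to 5.20 FPKM in 786-O. EPCAM, an epithelial surface protein, measured 0.236 to 0.324 FPKM in A498 and 3.83 to 4.38 FPKM in 786-O. The 4 fibroblast markers summed to 2.97 to 3.47 FPKM in A498 and 0.822 to 0.948 FPKM in 786-O, and did not all have the same order. COL1A1 measured 2.87 to 3.42 FPKM in A498 and 0.186 to 0.273 FPKM in 786-O, while LUM was at most 0.0208 FPKM in A498 and 0.493 to 0.677 FPKM in 786-O. The part of these markers in the line differences below was not tested.

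The sequences at the starts of 4 of the genes are shown because these genes had the largest differences between the lines. For SMAD3, whose 4 entries each have their own start in the files, the windows of the longest and of the most abundant entry are shown. Each run is the 250 bases before a start given by the current RefSeq table, placed by exact match on GRCh37 (hg19, the build of the files) and printed 5′ to 3′ on the strand of the gene. The SMAD box, CAGAC on either strand (GTCTG on the other), is in capitals. They run over chr1:218518428-218518677 (plus strand) for TGFB2, chr7:41742689-41742938 (minus strand) for INHBA, chr5:135364427-135364676 (plus strand) for TGFBI, and chr15:67357690-67357939 and chr15:67458619-67458868 (plus strand) for the long and the short form of SMAD3. The RefSeq starts differ from the entry starts in the files, lying 255 bases upstream of the file's start for the long SMAD3 form, and 2 bases (TGFB2), 18 bases (INHBA), 93 bases (TGFBI) and 376 bases (short SMAD3 form) inside the entry. The window of the short SMAD3 form therefore lies wholly within NM_001145104 as deposited, and that of TGFBI runs into the deposited gene.
TGFB2: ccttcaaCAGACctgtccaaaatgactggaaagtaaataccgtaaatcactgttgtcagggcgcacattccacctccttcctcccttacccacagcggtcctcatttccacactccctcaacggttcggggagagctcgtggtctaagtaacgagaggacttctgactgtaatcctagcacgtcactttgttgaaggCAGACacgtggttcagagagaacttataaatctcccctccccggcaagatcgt
INHBA: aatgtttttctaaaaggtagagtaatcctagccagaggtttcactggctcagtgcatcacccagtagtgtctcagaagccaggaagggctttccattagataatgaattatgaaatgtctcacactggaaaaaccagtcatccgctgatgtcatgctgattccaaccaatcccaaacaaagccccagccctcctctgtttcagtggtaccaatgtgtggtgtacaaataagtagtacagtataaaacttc
TGFBI: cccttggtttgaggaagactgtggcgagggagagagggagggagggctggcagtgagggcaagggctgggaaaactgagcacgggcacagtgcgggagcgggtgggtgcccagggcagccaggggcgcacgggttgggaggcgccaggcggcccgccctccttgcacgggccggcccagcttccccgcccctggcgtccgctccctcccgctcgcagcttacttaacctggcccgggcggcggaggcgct
SMAD3 long form: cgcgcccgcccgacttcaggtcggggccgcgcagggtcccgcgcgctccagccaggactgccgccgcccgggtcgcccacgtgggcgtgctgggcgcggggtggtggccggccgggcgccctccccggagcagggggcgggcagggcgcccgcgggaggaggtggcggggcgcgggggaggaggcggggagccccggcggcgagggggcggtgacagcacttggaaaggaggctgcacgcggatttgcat
SMAD3 short form: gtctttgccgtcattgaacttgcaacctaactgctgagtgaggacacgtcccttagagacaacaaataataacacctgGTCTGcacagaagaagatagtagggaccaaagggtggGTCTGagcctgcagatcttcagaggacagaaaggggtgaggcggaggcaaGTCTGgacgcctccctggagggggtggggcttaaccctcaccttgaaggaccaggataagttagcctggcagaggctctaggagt

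Of 35114 RefSeq promoters cut to the same length, 38.0% held at least 1 SMAD box, 8.8% at least 2 and 1.6% at least 3. The TGFB2 window held 2 SMAD boxes, at -243 and -53 from the start, and the window of the short SMAD3 form held 3, at -172, -135 and -85. The windows of INHBA, TGFBI and the long SMAD3 form held none. A TATA box, TATAAA on either strand, lay at -29 in TGFB2 and -11 in INHBA and was present in 10.7% of promoters. The GC box GGGCGG on either strand, present in 42.6% of promoters, had 4 matches before the long SMAD3 form and 3 before TGFBI. At least 3 GC boxes were held by 13.9% of promoters and at least 4 by 7.6%. The hypoxia element core ACGTG on either strand was held by 18.5% of promoters, and at least 3 matches by 1.5%. It had 3 matches in TGFB2 at -72, -49 and -48, the last pair being overlapping matches on opposite strands. The window of the long SMAD3 form held 2, at -173 and -172, and that of the short form 1, at -206. The AP-1 site TGANTCA, present in 6.6% of promoters, was in none of the 5 windows. GC content was 80.8% before the long SMAD3 form and 72.8% before TGFBI, but 53.6% before the short SMAD3 form, 50.4% in TGFB2 and 42.8% in INHBA, against a median of 58.0% over all promoters. A match is only a description of these letters.

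The first comparison asked which of the 10 genes differed between A498 and 786-O. Of the 10 genes, 6 were higher in 786-O (TGFB2, INHBA, TGFBR1, SMAD2, SMAD4 and TGFBI), 2 were higher in A498 (SMAD3 and SMAD7), and TGFB1 and TGFBR2 did not pass the test. The ligand genes TGFB2 and INHBA differed most, by 3.67 and 5.67 times. The test was limma on log2(FPKM + 0.1) with treatment as a covariate and Benjamini-Hochberg adjustment over 10501 genes. By it 83% of all genes passed, 40.6% higher and 42.4% lower in A498, so 8 of 10 is near the share of all genes and is not a result about these genes. The libraries of the lines did not overlap for the same 8 genes, nor for 77.3% of all genes. The median log2 difference (A498 minus 786-O) was -0.48 over the 10 genes and -0.02 over all genes tested. The labels do not say whether libraries of a group came from separate cultures, so p-values measure the spread between these libraries, which may be technical. In bulk RNA, fewer cells making a transcript and less transcript per cell cannot be told apart.

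**Figure D1:**
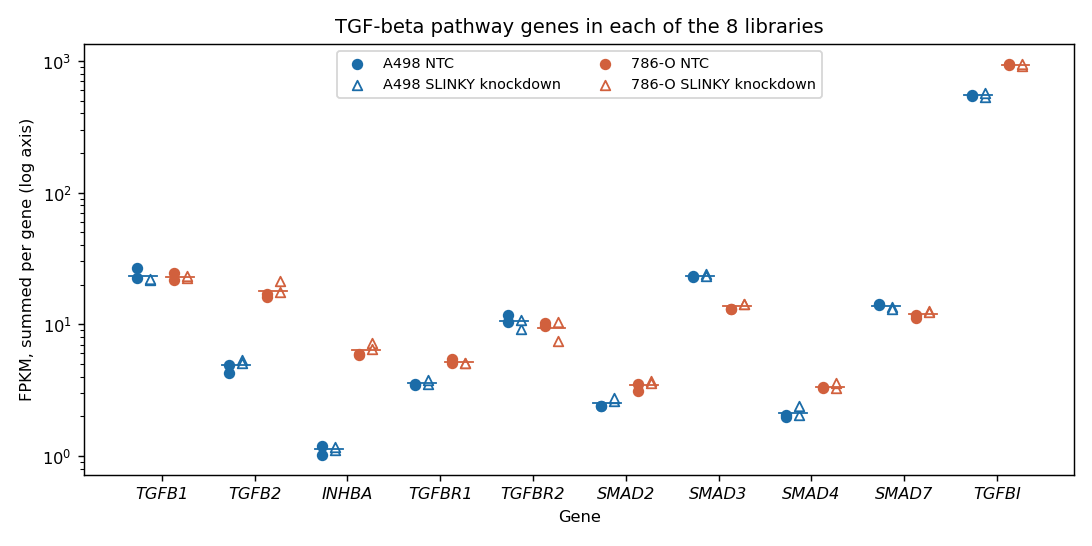
Summed FPKM (log axis) of the 10 genes in each of the 8 libraries, with A498 in blue and 786-O in orange, filled circles for NTC, open triangles for SLINKY knockdown and a line at the mean of each cell line. The INHBA values lie between 1.01 and 1.19 FPKM in A498 and between 5.79 and 7.16 FPKM in 786-O, while those of TGFB1 overlap.

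Among the ligands, TGFB1 (chr19:41836812-41859831), the most widely expressed TGF-beta isoform, measured 26.8 and 22.4 FPKM in the A498 NTC libraries, 21.8 and 22.1 with siRNA 1 and siRNA 2, 21.8 and 24.6 in the 786-O NTC libraries, and 22.4 and 23.1 with siRNA 1 and siRNA 2 there. The lines overlapped, with A498 NTC 1 the highest library. The log2 difference was 0.01 (95% interval -0.13 to 0.16, limma adjusted p = 0.847).

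TGFB2 (chr1:218518676-218617961), the isoform with the promoter shown first, measured 4.23 and 4.91 FPKM in the A498 NTC libraries, 5.39 and 5.07 with siRNA 1 and siRNA 2, 17.0 and 16.2 in the 786-O NTC libraries, and 21.2 and 17.6 with siRNA 1 and siRNA 2 there. Every 786-O library was above every A498 library, and 786-O siRNA 1 was the highest. The mean was 4.90 ± 0.488 FPKM in A498 and 18.0 ± 2.23 FPKM in 786-O (SD, n = 4 each), a log2 difference of -1.85 ± 0.07 (SE, limma adjusted p = 4.64e-09). Of the 2 RefSeq entries of TGFB2, NM_001135599 measured at most 3.17e-05 FPKM in A498 and 0.659 to 1.31 FPKM in 786-O, so nearly all of the gene's value came from NM_003238. The antisense gene TGFB2-AS1 overlaps the start of TGFB2 and measured 0.483 to 0.741 FPKM in A498 and 0.774 to 1.69 FPKM in 786-O. The library kit does not mark strand, so reads of the pair in their shared stretch cannot be told apart.

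INHBA (chr7:41728601-41742706) encodes the subunit of activin A, a ligand that signals through SMAD2 and SMAD3 by its own receptors. It measured 1.01 and 1.19 FPKM in the A498 NTC libraries, 1.10 and 1.17 with siRNA 1 and siRNA 2, 5.89 and 5.79 in the 786-O NTC libraries, and 7.16 and 6.48 with siRNA 1 and siRNA 2 there. The 4 libraries of 786-O all lay above the 4 of A498. The log2 difference of -2.40 ± 0.07 (SE, limma adjusted p = 9.06e-10) was the largest of the 10 genes and exceeded in size 92.4% of all differences tested, against 89.6% for TGFB2. INHBA lies within the noncoding entry AC005027.3, which measured 0.240 to 0.287 FPKM in A498 and 0.873 to 1.245 FPKM in 786-O. The authors' 95% interval for INHBA was wide in some libraries, 0.401 to 1.80 FPKM in A498 siRNA 1 and 2.06 to 9.52 FPKM in 786-O NTC 2, and the intervals of the lines did not meet.

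For the receptors, TGFBR1 (chr9:101867412-101916473), the type I receptor kinase, measured 3.44 and 3.53 FPKM in the A498 NTC libraries, 3.51 and 3.74 with siRNA 1 and siRNA 2, 5.41 and 5.08 in the 786-O NTC libraries, and 5.05 and 5.09 with siRNA 1 and siRNA 2 there. The lines were apart in every library, at a ratio of 1.45 (log2 difference -0.52 ± 0.05, SE, limma adjusted p = 7.27e-06). Its entry NM_001130916 carried 73.2% to 81.5% of the gene's FPKM in A498 and 86.8% to 93.0% in 786-O. The other entry, NM_004612, measured 0.691 to 0.947 FPKM in A498 and 0.356 to 0.670 FPKM in 786-O, the opposite order to the gene, and was too low to be tested.

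TGFBR2 (chr3:30647994-30735633), the type II receptor kinase, measured 10.5 and 11.8 FPKM in the A498 NTC libraries, 9.18 and 10.8 with siRNA 1 and siRNA 2, 10.2 and 9.64 in the 786-O NTC libraries, and 7.42 and 10.3 with siRNA 1 and siRNA 2 there. The lines overlapped, and siRNA 1 was the lowest library of each line. The log2 difference was 0.17 (95% interval -0.05 to 0.39, limma adjusted p = 0.130). The call turned on 1 library and on the model, since without 786-O siRNA 2 the difference was 0.26 (adjusted p = 0.0153) and with siRNA 1 and siRNA 2 as separate treatment levels the adjusted p was 0.0220.

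SMAD2 (chr18:45359466-45457517) and SMAD3 are the receptor-regulated SMADs of the pathway. SMAD2 measured 2.38 and 2.39 FPKM in the A498 NTC libraries, 2.60 and 2.75 with siRNA 1 and siRNA 2, 3.50 and 3.12 in the 786-O NTC libraries, and 3.70 and 3.56 with siRNA 1 and siRNA 2 there. It was higher in every 786-O library than in any A498 library (log2 difference -0.44 ± 0.06, SE, limma adjusted p = 6.02e-05).

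SMAD3 (chr15:67358195-67487533) had the opposite order to SMAD2. It measured 22.8 and 23.4 FPKM in the A498 NTC libraries, 24.3 and 23.2 with siRNA 1 and siRNA 2, 13.0 and 13.0 in the 786-O NTC libraries, and 14.3 and 14.4 with siRNA 1 and siRNA 2 there. The lines were far apart relative to their spread, at 23.4 ± 0.637 FPKM in A498 and 13.7 ± 0.784 FPKM in 786-O (SD, n = 4 each), a ratio of 1.71 in favour of A498 (log2 difference 0.77 ± 0.04, SE, limma adjusted p = 4.73e-08). On the per-length FPKM scale SMAD3 was above SMAD2 in all 8 libraries.

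SMAD4 (chr18:48556583-48611411), the partner shared by TGF-beta and BMP signals, measured 1.96 and 2.03 FPKM in the A498 NTC libraries, 2.03 and 2.39 with siRNA 1 and siRNA 2, 3.32 and 3.25 in the 786-O NTC libraries, and 3.25 and 3.56 with siRNA 1 and siRNA 2 there. It was the lowest of the 10 genes by mean FPKM and was higher in each 786-O library (log2 difference -0.65 ± 0.07, SE, limma adjusted p = 1.06e-05).

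SMAD7 (chr18:46446223-46477081), the inhibitory SMAD, measured 14.1 and 14.0 FPKM in the A498 NTC libraries, 13.6 and 13.1 with siRNA 1 and siRNA 2, 11.8 and 11.1 in the 786-O NTC libraries, and 12.5 and 12.3 with siRNA 1 and siRNA 2 there. The lines did not overlap but lay close, with a log2 difference of 0.20 ± 0.05 (SE, limma adjusted p = 0.00516). The authors' software marked its 4 entries as a failed estimate in A498 NTC 2 and 786-O siRNA 2, and without these libraries the difference was 0.19 (adjusted p = 0.0291).

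TGFBI (chr5:135364584-135399507), an extracellular matrix protein named for its induction by TGF-beta, was by far the most abundant of the 10, at a mean above those of 99.1% of genes tested. It measured 539 and 551 FPKM in the A498 NTC libraries, 535 and 572 with siRNA 1 and siRNA 2, 931 and 957 in the 786-O NTC libraries, and 910 and 943 with siRNA 1 and siRNA 2 there. The lines were separated by far more than their spread, at 549 ± 16.7 FPKM in A498 and 935 ± 19.9 FPKM in 786-O (SD, n = 4 each). The log2 difference was -0.77 ± 0.03 (SE, limma adjusted p = 1.25e-08), with 37433 to 161119 reads behind the value of each library.

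**Figure D2:**
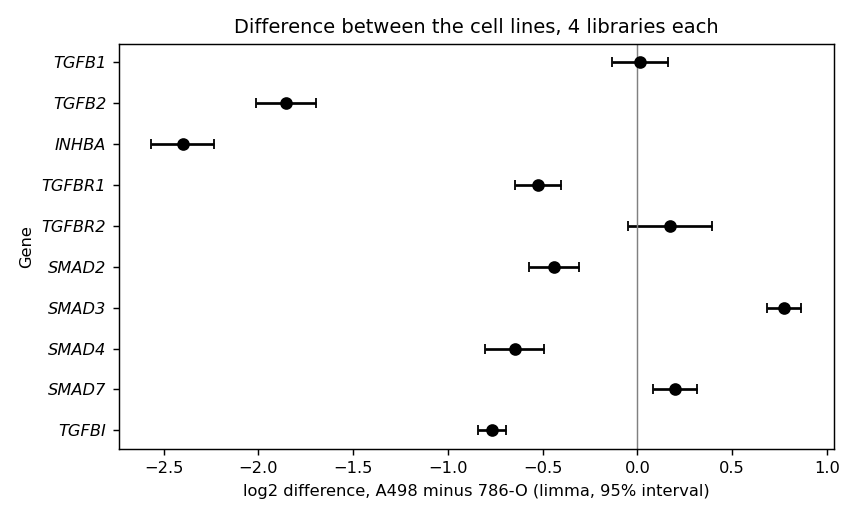
Log2 difference between the cell lines (A498 minus 786-O) for each of the 10 genes, with the 95% interval from limma over 4 libraries of each line. INHBA at -2.40 and TGFB2 at -1.85 lie farthest from 0, SMAD3 at 0.77 is the highest, and the intervals of TGFB1 and TGFBR2 include 0.

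The RefSeq entries of SMAD3 differ in their first exons. The shares of the gene held by 2 of the 4 entries did not overlap between the lines, and shares of 1 gene depend on each other. How often shares separate the lines over all genes was not counted, so the separation is not a result about SMAD3. The longest, NM_005902, measured 3.32 and 3.12 FPKM in the A498 NTC libraries, 3.64 and 4.56 with siRNA 1 and siRNA 2, 1.11 and 1.16 in the 786-O NTC libraries, and 1.52 and 1.42 with siRNA 1 and siRNA 2 there. It made up 13.4% to 19.6% of the gene in A498 and 8.59% to 10.6% in 786-O, ranges that do not overlap. The shortest, NM_001145104, measured 13.1 to 14.3 FPKM in A498 and 8.96 to 10.2 FPKM in 786-O, and took 56.3% to 62.8% of the gene in A498 and 66.5% to 71.4% in 786-O. The shares of NM_001145103, at 21.2% to 28.9% in A498 and 18.7% to 22.9% in 786-O, and of NM_001145102, at 0.45% to 2.8% and 0% to 1.35%, overlapped. Fitted entry by entry, where 67.7% of 13520 entries passed, the log2 difference was 1.42 for NM_005902 (limma adjusted p = 1.13e-05), 1.01 for NM_001145103 (adjusted p = 6.83e-04) and 0.52 for NM_001145104 (adjusted p = 1.41e-04). The difference between these differences was not tested. Short single-end reads were divided between overlapping entries by the authors' software. In 786-O NTC 1 the interval ran from 0 to 4.66 FPKM for NM_005902 and from 0 to 6.755 FPKM for NM_001145103. The shares in that library were therefore loosely determined.

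**Figure D3:**
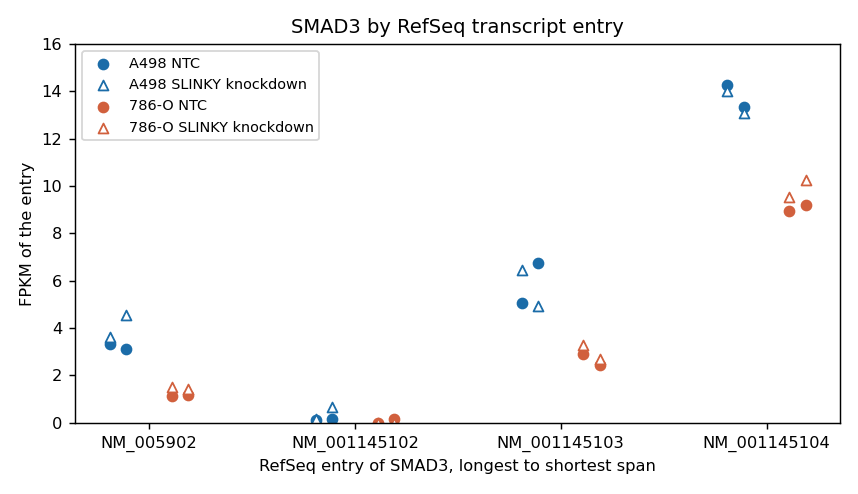
FPKM of the 4 RefSeq entries of SMAD3 in each library, from the longest to the shortest span, with A498 in blue, 786-O in orange, filled circles for NTC and open triangles for SLINKY knockdown. NM_001145104 is the highest entry in both lines, and NM_005902 lies between 3.12 and 4.56 FPKM in A498 and between 1.11 and 1.52 FPKM in 786-O.

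Across the 8 libraries, the gene outside the 10 whose log2 values most resembled each of them was found by Pearson correlation, given as a description. The closest were ANAPC16 for INHBA (r = 0.999), SERBP1 for TGFB2 (r = 0.999), EOGT for TGFBR1 (r = 0.998), COX15 for SMAD2 (r = 0.995), ZFYVE1 for SMAD3 (r = 0.999), DHX9 for SMAD4 (r = 0.998) and EYA3 for TGFBI (r = 1.00). Of the 8 genes that passed between the lines, 7 had from 595 (SMAD2) to 2648 (SMAD3) such neighbours above r = 0.95, and the points share the cell lines. TGFB1 had 2 neighbours above that level, the closest being CAPN15 (r = 0.967). TGFBR2, closest to DLD (r = 0.955), and SMAD7, closest to ZNF830 (r = 0.964), had 6 each, although SMAD7 passed between the lines.

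Other genes of the pathway were taken from lists of ligands, receptors, SMADs, latency and activation proteins, antagonists, intracellular regulators and target genes. Counts on these lists stand beside the 83% of all genes that passed, 40.6% higher and 42.4% lower in A498, and a share near these is not a result about a list. Of 13 other ligands 5 could be tested, 4 higher in A498 and 1 in 786-O. GDF15, a distant family member and stress-induced cytokine, measured 633 to 954 FPKM in A498 and 13.9 to 18.8 FPKM in 786-O (log2 difference 5.55, limma adjusted p = 4.04e-11). BMP1 (1.57, adjusted p = 7.26e-10), despite its name a matrix protease and no ligand, and the activin subunit INHBB (0.58, adjusted p = 1.34e-05) were also higher in A498, whereas BMP2 was lower (-1.03, adjusted p = 5.00e-07). Of 10 other receptors 5 could be tested, 3 of them higher in A498, the BMP receptors ACVR1 (0.54, adjusted p = 5.54e-06) and BMPR2 (0.29, adjusted p = 0.00383) and the activin receptor ACVR1B (0.22, adjusted p = 0.00555), and 1 lower, BMPR1A (-0.27, adjusted p = 0.0196). The receptors too low to test did not share 1 order. TGFBR3 measured 0.343 to 0.483 FPKM in A498 and at most 0.0615 in 786-O, and ACVRL1 0.901 to 1.19 and 0. ENG, BMPR1B and ACVR2B had the opposite order, at most 0.133, 0.0893 and 0.1415 FPKM in A498 and at least 0.392, 0.54 and 0.311 in 786-O. Of the BMP-regulated SMADs, SMAD1 was higher in A498 (0.46, limma adjusted p = 0.00198) and SMAD5 lower (-0.54, adjusted p = 5.44e-04).

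Among 11 latency and activation genes, 6 could be tested and passed, 3 in each direction, where 83% of all genes passed. The latent TGF-beta binding proteins LTBP3 (log2 difference 2.66, limma adjusted p = 3.31e-10) and LTBP4 (1.82, adjusted p = 1.24e-08) and the integrin subunit ITGAV (0.72, adjusted p = 5.25e-05) were higher in A498. THBS1, an activator of latent TGF-beta (-2.85, limma adjusted p = 1.28e-11), FURIN, the protease that cleaves the precursor (-0.94, adjusted p = 4.83e-07), and the integrin subunit ITGB8 (-0.86, adjusted p = 9.68e-05) were higher in 786-O. ITGB8 met the filter only through 786-O, with means of 1.69 FPKM there and 0.879 FPKM in A498. The latency and activation genes too low to test were all higher in A498, without overlap. LTBP2 measured 1.33 to 1.62 FPKM in A498 and 0.203 to 0.2645 in 786-O, and ITGB6 1.47 to 1.92 and 0.249 to 0.507. LTBP1, FBN1 and LRRC32 were at least 0.768, 0.57 and 0.0613 FPKM in A498 and at most 0.2005, 0.181 and 0.0068 in 786-O. The 3 of 9 extracellular antagonists that could be tested were all higher in 786-O: FSTL1 (-1.20, adjusted p = 1.70e-09), the pseudoreceptor BAMBI (-0.74, adjusted p = 1.66e-06) and FSTL3 (-0.23, adjusted p = 0.00418). Those too low to test did not share 1 order. NOG measured 1.22 to 1.46 FPKM in A498 and 0.365 to 0.489 in 786-O. FST measured 0.366 to 0.415 FPKM in A498 and at most 0.0284 in 786-O. BGN had the opposite order, at 0.0504 to 0.0631 FPKM in A498 and 0.104 to 0.244 in 786-O.

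Of 17 intracellular regulators, 3 were higher and 9 lower in A498, with a median of -0.22, a smaller share than the 83% of all genes that passed. The corepressors SKIL (0.98, limma adjusted p = 4.14e-05) and TGIF2 (-2.52, adjusted p = 1.56e-10) were the largest in each direction. The corepressors TGIF1 (0.18, adjusted p = 0.00173) and SKI (-0.85, adjusted p = 8.12e-07) also passed, and the ubiquitin ligases SMURF1 (0.48, adjusted p = 1.69e-06) and NEDD4L (-0.90, adjusted p = 4.31e-07) differed in opposite directions. Of 21 target genes, 19 could be tested, 5 higher and 11 lower in A498, and their median was -0.97 against -0.02 over all genes. The share that passed was near the 83% of all genes. SKIL and PMEPA1 are also counted among the intracellular regulators and THBS1 among the latency and activation genes, so these counts are not separate. COL1A1 (3.30, adjusted p = 1.06e-09), the cell cycle inhibitor CDKN1A (2.59, adjusted p = 2.08e-11) and the smooth muscle actin ACTA2 (1.56, adjusted p = 8.91e-06) were higher in A498. The actin-binding TAGLN (-3.71, adjusted p = 2.26e-11), THBS1 and the matrix gene FN1 (-2.64, adjusted p = 1.96e-10) were higher in 786-O. CCN2 (-1.04, adjusted p = 9.51e-08) and ID1 (-0.97, adjusted p = 6.08e-07) were also higher in 786-O, whereas PMEPA1, a feedback inhibitor, did not pass (-0.02, adjusted p = 0.601). COL1A1 met the filter of 1 FPKM only through A498, with means of 3.19 FPKM there and 0.2355 FPKM in 786-O. TAGLN met it only through 786-O, with means of 12.18 FPKM there and 0.84 FPKM in A498. Their tests were therefore open only because 1 line was high. Several targets answer to other signals as well. PMEPA1, PTHLH and TRIM33 on these lists are also among the genes the study picked from these libraries.

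**Figure D4:**
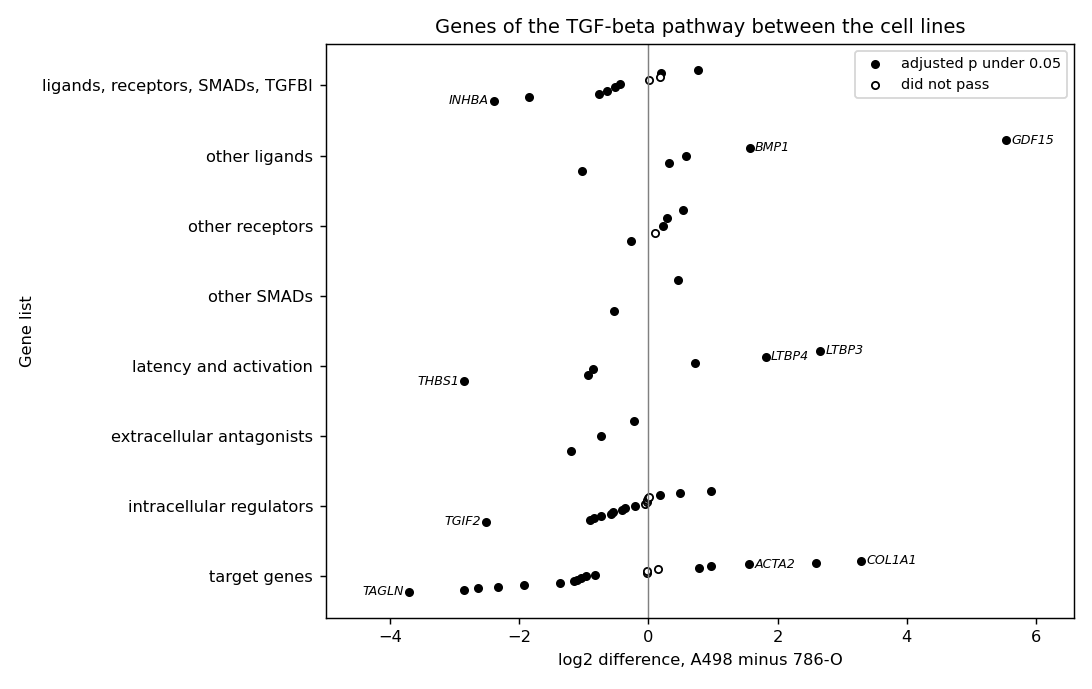
Log2 difference between the cell lines (A498 minus 786-O) for each gene tested of the 10 genes (top) and of 7 lists of other pathway genes, with filled points for genes with an adjusted p under 0.05 and open points for the rest. Of the target genes 5 of 19 passed to the right of 0 and 11 to the left, and GDF15 at 5.55 is the farthest from 0. SKIL, PMEPA1 and THBS1 are drawn on each of their lists.

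The second comparison asked whether the 10 genes changed when SLINKY was knocked down. None of them passed in limma over both lines, fitted with a term for the line, and 0% of 10501 genes did (0 genes, with 1248 or 11.88% at an unadjusted p under 0.05). TGFB2 had the largest difference, with a log2 difference (knockdown minus NTC) of 0.21 (95% interval 0.05 to 0.37, limma unadjusted p = 0.0167, adjusted p = 0.379). SMAD2 (0.15, unadjusted p = 0.0352, adjusted p = 0.397 in limma) and SMAD3 (0.09, unadjusted p = 0.0481, adjusted p = 0.416) were the other 2 of the 10 with an unadjusted p under 0.05. TGFBR2 had the lowest value, -0.17 (95% interval -0.39 to 0.05, adjusted p = 0.504), and INHBA measured 0.13 (-0.03 to 0.30, adjusted p = 0.490). TGFB1 (-0.09) and SMAD4 (0.09) lay between, and TGFBR1 (0.0040), SMAD7 (0.02) and TGFBI (-0.0033) were near 0. The interval of TGFBI, the most precisely measured, ran from -0.08 to 0.07. The median log2 difference was 0.06 over the 10 genes and 0.01 over all genes.

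**Figure D5:**
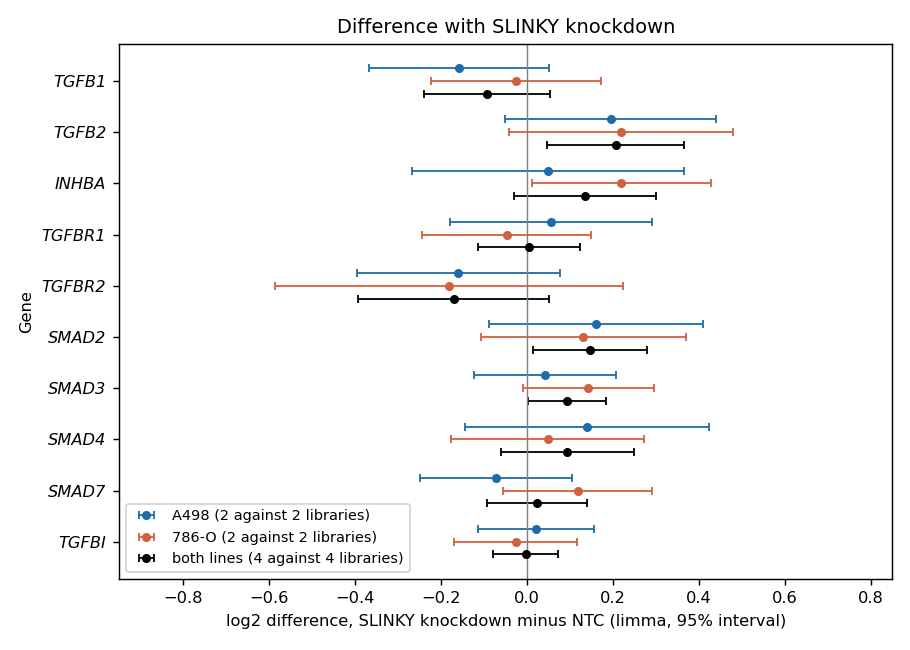
Log2 difference between SLINKY knockdown and NTC for each of the 10 genes with the 95% interval from limma, in A498 (blue) and in 786-O (orange) with 2 against 2 libraries each, and over both lines (black) with 4 against 4. The intervals over both lines leave out 0 for TGFB2, SMAD2 and SMAD3 before adjustment over all genes, and none of the 10 passed after it.

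Within A498 none of the 10 genes passed, beside 3 of all genes (0.0286%, with 638 at an unadjusted p under 0.05). These 3 were MAPK8, POLD3 and RBM14-RBM4, named after their values were seen. For MAPK8, the entry NM_139046 measured 2.59 and 3.16 FPKM in the A498 NTC libraries and 0.0014 and 0.0019 with the siRNAs. NM_139047, left out of the sum for want of a current symbol, measured 0.0065 and 0.0024 against 2.78 and 2.73 FPKM. The part of overlapping entries in the 3 calls was not tested. Over all RefSeq entries on the gene's span, A498 NTC and siRNA libraries averaged 2.97 and 2.76 FPKM for MAPK8, 2.95 and 2.79 FPKM for POLD3, and 61.7 and 61.9 FPKM for RBM14-RBM4. Within 786-O none of the 10 passed and 0% of all genes did (0 genes, with 398 at an unadjusted p under 0.05). There INHBA had a log2 difference of 0.22 (limma unadjusted p = 0.0428, adjusted p = 0.969) and SMAD3 one of 0.14 (unadjusted p = 0.0609, adjusted p = 0.969), both singled out after their values were seen. The interaction of knockdown and line passed for 0 of the 10 and for 0.00952% of genes (1 gene, again MAPK8, with 191 at an unadjusted p under 0.05). SMAD7, also singled out after its values were seen, had the lowest p of the 10 there. Its log2 difference was -0.07 in A498 and 0.12 in 786-O (difference -0.19, unadjusted p = 0.0690, adjusted p = 0.9998 in limma). Its estimate was marked as failed in A498 NTC 2 and 786-O siRNA 2, and the interaction was not fitted without both.

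The knockdown and NTC libraries of A498 did not overlap for 5 of the 10 genes, with TGFB2, SMAD2 and SMAD4 above and TGFB1 and SMAD7 below, against 37.3% of all genes. In 786-O they did not overlap for 5, with TGFB2, INHBA, SMAD2, SMAD3 and SMAD7 above, against 32.7% of all genes. TGFB2 and SMAD2 were above the NTC libraries in both lines, and SMAD7 was on opposite sides. The shares of all genes with these orders over both lines were not counted, so they are not a result about these genes.

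Each siRNA library was also set against its line's mean NTC value, with no test, since there was 1 library each. A log2 difference of at least 0.32 in size was reached by none of the 10 genes with siRNA 1 in A498 (3.81% of all genes), none with siRNA 2 in A498 (5.49%) and none with siRNA 2 in 786-O (3.92%). With siRNA 1 in 786-O it was reached by 2, TGFB2 at a log2 difference of 0.35 and TGFBR2 at -0.42, beside 5.9% of all genes. The NTC libraries differed from each other by that much for none of the 10, and for 4.67% of genes in A498 and 4.63% in 786-O. Both siRNA libraries of a line share its NTC libraries. For TGFB2 the differences were 0.23 and 0.15 in A498 and 0.35 and 0.08 in 786-O with siRNA 1 and siRNA 2, where NTC 2 differed from NTC 1 by 0.21 in A498 and -0.07 in 786-O. For TGFB1 they were -0.18 and -0.15 in A498 and -0.05 and -0.01 in 786-O, where the NTC libraries differed by -0.25 and 0.18.

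Of the other pathway genes tested, none passed the test over both lines, on any of the 7 lists. THBS1 (log2 difference 0.24, limma unadjusted p = 5.10e-04, adjusted p = 0.240) and CCN2 (0.24, unadjusted p = 0.00300, adjusted p = 0.301) had the lowest unadjusted p-values on these lists. The median over the 19 target genes tested was -0.01.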

How the data were processed

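The deposited files held 1 value per RefSeq or noncoding entry and library, as FPKM with a 95% interval and a status, which the authors made with TopHat2 2.0.0 and Cufflinks 2.0.2 on hg19 (per the labels). The FPKM values were not counts, so no count model was used. Messenger RNA (NM) entries were given current symbols from RefSeq (97.7% matched) and summed per symbol, and entries without one were left out. Genes averaging 1 FPKM or more in the 8 libraries were tested on log2(FPKM + 0.1) with limma 3.58.1 in R 4.3.3 (eBayes with a variance trend), with Benjamini-Hochberg adjustment and a threshold of 0.05. The pseudocount understates the changes of low genes.

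Reads behind a value were estimated from the interval, taken as FPKM plus or minus 2 standard errors of a count. This covers counting error only, and reads shared between overlapping entries make it approximate. A single value was tested by an exact permutation within lines. Python 3.11.15, pandas 2.3.3 and numpy 2.4.6 were used. The fits were run on simulated data without the line differences of the real libraries. Only the size of the median estimate was required to be right there, so the calls above gain no support from it. Genes, lists and promoters were chosen with earlier results of these data known. All 10 genes were named, and of each list up to 3 genes per direction that passed with the largest difference, plus CCN2, ID1 and PMEPA1; 1 further gene named in this rule is not reported here. Where further genes are named, they were chosen after their values were seen. Promoters were taken from the RefSeq table and placed on GRCh37, and all 10 genes matched it. Alternatives varied the pseudocount, filter, scaling, entries, trend, replicate block and libraries left out.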

Additional observations from a re-analysis of the deposited data

How the results depend on the processing

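Over the alternatives run, the 8 genes that passed between the lines did so under each, and TGFBR2 joined them without 786-O siRNA 2 (0.26, limma adjusted p = 0.0153), with treatment in 3 levels (0.17, adjusted p = 0.0220) and without the 2 libraries whose SMAD7 estimate failed (0.25, adjusted p = 0.0495, chosen after seeing the data), giving 9. TGFB1 ran from -0.050 to 0.051 as 1 library was left out, turning negative without A498 NTC 1 (-0.050) and without 786-O NTC 1 (-0.035). None of the 10 genes passed in a knockdown or interaction fit under any alternative. Over both lines, 3 knockdown differences changed sign, all of them near 0: TGFBR1 with median ratio scaling (-0.0079) and, leaving out 1 library, from -0.024 to 0.032, SMAD7 from -0.016 to 0.052 and TGFBI from -0.028 to 0.012.

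Counts over all genes moved more. With NM and NR entries (added after seeing the data) limma called 1 gene over both lines, 20 within A498, 16 within 786-O and 16 in the interaction, and with no filter on low values 0 within A498, 1 within 786-O and 4 in the interaction. A pseudocount of 1 left 0 in the interaction, and 1 mean per group over all libraries left 1 within A498. Leaving out 1 library gave 0 to 4 over both lines, 2 to 156 within A498 (156 without siRNA 1, 96 without siRNA 2), 0 to 2 within 786-O and 1 to 6 in the interaction; a lone siRNA library is then assumed to vary like the other group. These causes were not tested. Genes with a single-siRNA log2 difference of at least 0.32 in size fell from 400 to 195 (siRNA 1, A498), 576 to 299 (siRNA 2, A498), 620 to 299 (siRNA 1, 786-O) and 412 to 173 (siRNA 2, 786-O) with a pseudocount of 1.

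The replicate block (NTC 1 with siRNA 1, NTC 2 with siRNA 2) left 8721 genes between the lines, 0 over both lines, 3 within A498, 0 within 786-O and 1 in the interaction. Deviations of same-numbered NTC and siRNA libraries correlated at 0.25 in A498 and -0.03 in 786-O, those of the NTC libraries of both lines at -0.26 and those of the siRNA libraries at 0.17. The labels name no shared culture or batch behind a number, so the libraries were not taken as pairs. Against the NTC library of the same number, siRNA 1 in A498 moved 674 of 10501 genes past 0.32 and 1 of the 10 (TGFB2). In 786-O siRNA 1 moved 701 of 10501 genes and 1 of the 10 (TGFBR2). With siRNA 2 it was 505 genes in A498 and 542 in 786-O, and none of the 10. Low entries rested on fewer reads. In 786-O, NM_004612 of TGFBR1 had 43.1 to 148 reads per library, where NM_001130916 had 926.7 to 1522.5.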
